A study of Mus musculus with 15 samples.

Results

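The newborn wild-type mouse pituitary is described here from 5 RNA pools of Pit1+/+ pups at postnatal day 1, which are 5 of the 15 pools in the series. They were chosen by their titles alone, and no group is compared. Each pool was measured on 1 Affymetrix Mouse Genome 430 2.0 array, a chip that reads each transcript with 1 or more sets of short probes. The pups came from the DW/J background, the strain in which the Snell dwarf allele of Pit1 is kept, and the mice ate a high fat laboratory chow. The other arrays of the series, among them 5 of newborn Pit1 dw/dw pituitaries, enter only the choice of a probe set for each gene and the check of a label. The sources used here do not give how many pituitaries made up a pool, nor the sex of the pups. The labels call the pools biological replicates, and an SD below is the spread between these pools. Values are log2 RMA signals, so a difference of 1 unit is a 2-fold difference in signal.

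The anterior pituitary makes its hormones in separate cell types. Somatotrophs make growth hormone, lactotrophs prolactin, thyrotrophs thyrotropin and gonadotrophs luteinizing and follicle-stimulating hormone, while corticotrophs and the melanotrophs of the intermediate lobe cleave their peptides from pro-opiomelanocortin. Releasing and inhibiting factors from the hypothalamus act on receptors of these cells, and transcription factors such as Pit1 set which cell type a progenitor becomes. Around birth progenitors still divide, the hormone cells expand in number, and lactotrophs are the last to mature in the mouse.

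Several pools stand apart, which bears on the values below. Pool 1 carries a genotype entry that its title, source name and strain contradict. A scale was drawn from 0 for the other wild-type pools to 1 for Pit1 dw/dw, over 92 genes chosen without pool 1. Its median position was 0.0243, with 86 of the 92 genes nearer the wild-type end. Thyrotropin beta (Tshb) read 11.91 in pool 1 against 6.20 to 7.01 in Pit1 dw/dw, so the pool was kept under its title. That scale holds only these groups and tests for no other genotype. Pool 5 was the highest or the lowest of the 5 pools for 11256 of 18193 genes (61.9%), against 27.5% to 43.4% for the other pools. The spiked bacterial controls BioB, BioC and BioD averaged 12.01 on its array and 11.30 to 11.62 on the others. Pools 1 and 4 were the most alike, with 150 genes that differed by 1 log2 unit or more, and pools 3 and 5 the least alike, with 2660. Signals of the 3′ control probe sets exceeded those of the 5′ sets by 2.70 to 3.07 log2 units for Actb. For Gapdh the difference was 1.96 to 2.97, lowest in pool 5 and highest in pool 3. Probe sets of B1 and B2 repeats averaged 11.09 in pool 5 and 10.17 to 10.60 in the others. The part of RNA quality or labelling in the differences between pools was not tested. Array medians ran from 4.31 to 4.43, and the number of arrays limits the precision.

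Growth hormone (Gh) gave the highest signal of all 18193 genes, and the corticotroph and melanotroph precursor pro-opiomelanocortin (Pomc) the second highest. Gh ranked 1 and Pomc ranked 2 in each of the 5 pools. Below them came the housekeeping part of the list, led by the signalling adaptor Ywhae (mean 13.45), the ribosomal protein Rpl4 (13.39), the actin-severing protein Cfl1 (13.30) and the mitochondrial channel Vdac1 (13.27). The 20 highest signals also held Mrfap1 (13.27), the nuclear long non-coding RNA Malat1 (13.21), the stimulatory G protein subunit gene Gnas (13.15), the elongation factor Eef1a1 (13.08), the chromatin protein Hmgn1 (12.96), the chaperone Hspa8 (12.95) and the RNA-binding protein Ewsr1 (12.95). Beside Rpl4, ribosomal proteins in that list were Rpl13a, Rpl41, Rpl38, Rps3a1, Rps24, Rps29 and Rpl27a, at 12.95 to 13.21. Of 45 ribosomal protein genes, 28 lay in the top 1% of signals, 182 genes with means of 11.68 or more. A rank here is a rank of array signal, not of transcript copies, because probe sets differ in how strongly they bind. Of the top 182 genes, 133 (73.1%) rest on a probe set whose name ends in _x_at, _s_at or _a_at, against 3749 of all genes (20.6%). Probes of such sets can match more than 1 transcript, which for _a_at are transcripts of the same gene. Without such probe sets Hmgn1 read 3.38, Hspa8 4.32, Ewsr1 4.84, Gnas 7.28 and Cfl1 7.34, and 63 of the top 182 genes were still in the top 1%. All 4 probe sets of Gh and the 2 of Pomc have such names, so the ranks of both genes rest on these sets alone. Their _a_at sets averaged 13.77 for Gh and 12.86 for Pomc.

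To judge dim signals, the olfactory, vomeronasal and taste receptor genes served as a reference, since these chemosensory receptors belong to sensory cells of the nose and tongue. The 95th percentile of their 75 means was 4.50, and their median was 2.81. The 4 that lay above it were Vmn2r84, the brightest of them, Vmn2r29 (5.73), Vmn2r1 (5.09) and Vmn1r58 (4.75). Of 18193 genes, 11594 (63.7%) had a mean above 4.50, which is the share against which the counts of gene groups below are read. Taken pool by pool, the same percentile ran from 4.06 in pool 3 to 5.40 in pool 5, and 9227 genes were above it in all 5 pools, 5546 in none and 3420 in some.

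**Figure D1:**
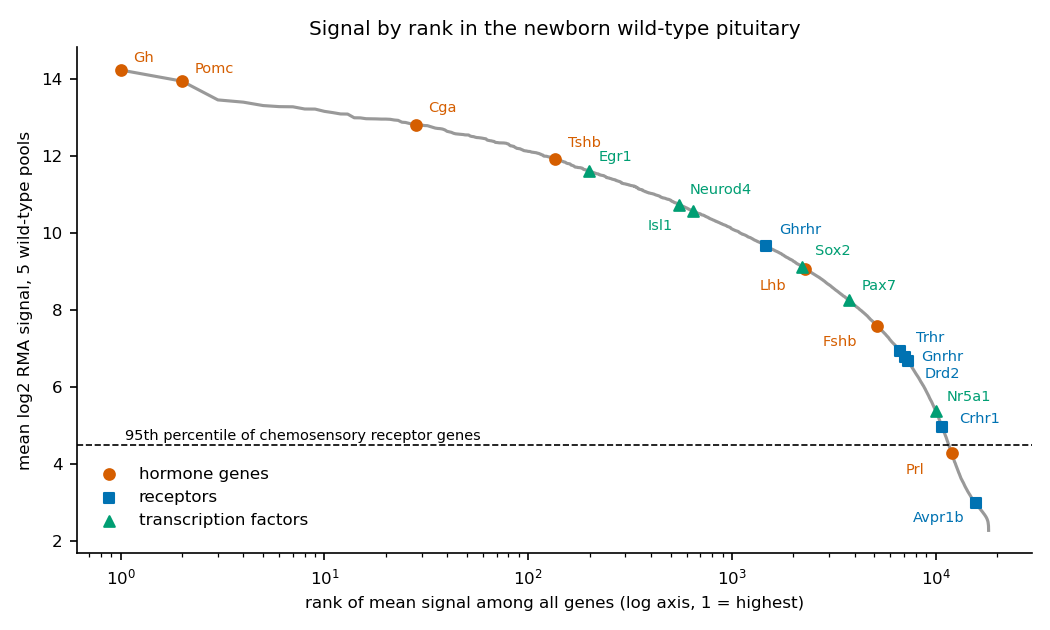
Mean log2 signal of the 5 wild-type pools (vertical axis) against its rank among 18193 genes (horizontal log axis), with hormone genes as circles, receptors as squares and transcription factors as triangles; the dashed line is the chemosensory 95th percentile at 4.50. Gh and Pomc lead the curve, Lhb and Fshb lie far lower at ranks 2292 and 5147, and Prl falls below the line.

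The 7 hormone genes ran from the highest mean signal of all genes, 14.22 for Gh, to 4.29 for prolactin (Prl), at rank 11967. Gh read 14.22, 14.26, 14.19, 14.28 and 14.15 in pools 1 to 5, a mean of 14.22 ± 0.05 (SD, n = 5). The pools lay within 0.13 units of each other, and the 4 probe sets of Gh had means of 13.55 to 14.22. These values are close to the upper end of the scale, where the Cre control spikes averaged 14.43 to 14.60, and the part of that limit in the small spread was not tested. Pomc read 13.99, 13.98, 13.97, 13.97 and 13.74 (mean 13.93 ± 0.11, SD, n = 5), with pool 5 below the rest, and its other probe set averaged 12.86.

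The common alpha subunit of the glycoprotein hormones (Cga), shared by thyrotropin and the gonadotropins, ranked 28. It read 12.80, 13.07, 12.74, 12.58 and 12.82 in pools 1 to 5 (mean 12.80 ± 0.18, SD, n = 5). Tshb, the subunit that makes a thyrotropin of it, ranked 136 with 11.91, 12.29, 11.67, 11.90 and 11.77 (mean 11.91 ± 0.24). Pool 2 was the highest for both genes. In pooled RNA, fewer cells of a type and less RNA per cell cannot be told apart, here or in any group below.

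The gonadotropin beta subunits were lower and uneven between pools. Luteinizing hormone beta (Lhb), at rank 2292, read 10.19, 9.99, 9.09, 7.71 and 8.35 in pools 1 to 5, a mean of 9.07 ± 1.06 (SD, n = 5). Follicle-stimulating hormone beta (Fshb), at rank 5147, read 7.92, 9.20, 7.17, 6.73 and 6.94 (mean 7.59 ± 1.01). Pools 1 and 2 were the highest and pool 4 the lowest for both genes, a range of 2.49 units for Lhb. These were the only hormone genes with an SD of 1 or more, 2 of 7, where 1.75% of all genes had such a spread. The count was 1 of 7 without pool 1, without pool 2 or without pool 4. Pool 4 is also the pool with an Xist signal of 3.69 against 10.19 to 11.14 in the others, and its part in the gonadotropin values was not tested. Prolactin (Prl) was the only hormone gene under the chemosensory reference, at rank 11967. It read 4.83, 4.30, 3.78, 3.99 and 4.56, a mean of 4.29 ± 0.42 that cannot be told from dim signal.

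The hormone genes share a feature of their promoters that the choice of samples did not use. RefSeq promoter entries (build GRCm38.p6, from 250 bases before to 50 after each start) were found for 6 of the 7 hormone genes; Gh has none in that table. The letters TATAAA were searched on the gene's strand, with the first T 20 to 40 bases before the start, where a TATA box usually lies. All 6 promoters hold them, against 655 of 32851 promoters in the table (1.99%) and 408 of 18109 promoters of genes on the array (2.25%). The 120 bases before the start are shown, 5′ to 3′, with these letters in capitals, because the 6 genes include the highest and the lowest hormone signals with an entry. The coordinates are chr12:3954825-3954944 on the plus strand for Pomc, chr4:34893659-34893778 on the plus strand for Cga and chr3:102782715-102782834 on the minus strand for Tshb. They are chr7:45420826-45420945 on the plus strand for Lhb, chr2:107059652-107059771 on the minus strand for Fshb and chr13:27057450-27057569 on the plus strand for Prl.
Pomc: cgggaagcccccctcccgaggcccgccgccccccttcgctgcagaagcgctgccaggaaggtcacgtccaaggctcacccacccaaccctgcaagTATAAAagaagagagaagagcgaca
Cga: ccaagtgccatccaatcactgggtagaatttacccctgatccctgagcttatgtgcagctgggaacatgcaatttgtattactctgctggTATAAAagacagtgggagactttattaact
Tshb: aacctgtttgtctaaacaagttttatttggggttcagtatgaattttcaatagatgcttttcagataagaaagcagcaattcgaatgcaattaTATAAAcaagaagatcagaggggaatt
Lhb: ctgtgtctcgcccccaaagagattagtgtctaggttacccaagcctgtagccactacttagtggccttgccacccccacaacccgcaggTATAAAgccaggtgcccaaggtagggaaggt
Fshb: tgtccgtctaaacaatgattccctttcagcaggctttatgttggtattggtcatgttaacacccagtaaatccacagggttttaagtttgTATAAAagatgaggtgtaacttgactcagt
Prl: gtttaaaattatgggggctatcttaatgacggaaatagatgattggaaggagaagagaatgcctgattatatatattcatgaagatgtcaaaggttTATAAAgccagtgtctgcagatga

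The first T lies 25 bases before the start in Pomc, 30 in Cga, 27 in Tshb, 31 in Lhb, 30 in Fshb and 24 in Prl. Over the 250 bases before the start, the promoters differ in CG dinucleotides, with 15 in Pomc, 4 in Lhb, 3 in Fshb, 1 each in Tshb and Prl and 0 in Cga. Across genes on the array, the share of promoters with the letters at this place was 1.33% in the 20% of genes with the highest signals and 5.62% in the 20% with the lowest. Among the top 1% of signals it was 7 of 199 promoters (3.52%), and among ribosomal protein genes it was 0 of 47, a count that says only that these letters are not in this window. Anywhere in the 250 bases and on either strand, 12.4% of all promoters hold them. A match of letters is a description and not a measured site, and no test was made on a set of 6 genes.

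Genes of the secretory granule, in which hormones are stored and cut, were high as a group. All 15 that were measured lay above the reference, where 63.7% of all genes did. Chromogranin B (Chgb), a granule matrix protein, ranked 76 with 12.32, 12.64, 12.13, 12.44 and 12.11 in pools 1 to 5. Carboxypeptidase E (Cpe), which trims the cut ends of hormone peptides, ranked 79 with 12.25, 12.42, 12.32, 12.23 and 12.32. The pools lay within 0.52 units of each other for Chgb and within 0.19 units for Cpe. Next came the chaperone of prohormone convertase 2, Scg5 (mean 11.69 ± 0.21), and the granins Chga (11.42 ± 0.43), Scg3 (10.59 ± 0.26) and Scg2 (10.41 ± 0.37). The protease Furin stood at 9.67 ± 0.20 and the granule membrane protein Ptprn2 at 9.12 ± 0.34.

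Pool 5 had the lowest mean over the 15 granule genes, 8.61 against 9.03 to 9.37 in the other pools. The difference was largest for Pcsk1n, the precursor of an inhibitor of prohormone convertase 1, which read 9.24, 9.19, 9.12, 9.30 and 6.80 in pools 1 to 5. It was the only gene of the group with an SD of 1 or more (1.08), and none had one without pool 5, while 2 did without pool 1, 2 or 4. The granin Vgf was also lowest in pool 5, with 8.39, 8.11, 9.20, 8.50 and 6.65. Pool 5 also had the highest BioB, BioC and BioD controls (12.01). Among the other pools, pool 2 had both the highest of these controls (11.62) and the highest granule mean (9.37). The part of the array controls in these values was not tested.

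Among 27 neuropeptide genes, 14 lay above the reference (51.9%, against 63.7% of all genes). Adrenomedullin (Adm), a vasodilator peptide, had the highest signal, at rank 2098 and 9.19 ± 0.14 (SD, n = 5), but without the probe sets that can match several transcripts it read 4.76. The tachykinin precursor Tac1 read 6.61, 6.85, 10.60, 6.54 and 6.03, so pool 3 alone was high. Its SD of 1.86 and that of Adcyap1 were the only ones of 1 or more in the list, and without pool 3 no member had one, while 3 did without pool 5. Enkephalin (Penk, 7.29 ± 0.74), galanin (Gal, 7.11 ± 0.45), Cartpt (6.69 ± 0.36), neuromedin B (Nmb, 6.40 ± 0.35) and neuropeptide Y (Npy, 6.39 ± 0.94) followed. Endothelin 3 (Edn3, 6.13 ± 0.38), the peptide ligand Apela (5.49 ± 0.29) and neuromedin U (Nmu, 5.09 ± 0.37) were dimmer. Of the hypothalamic factors themselves, Ghrh, Trh and Crh lay below the reference, as did vasopressin (Avp) and oxytocin (Oxt).

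The receptors on which hypothalamic factors act were mostly dim, and 16 of 34 lay above the reference (47.1%, against 63.7% of all genes). The growth hormone releasing hormone receptor (Ghrhr), which marks somatotrophs, was the highest at rank 1478. It read 9.59, 9.85, 9.45, 9.81 and 9.54, a mean of 9.65 ± 0.17 (SD, n = 5). All 5 pools lay within 0.40 units of each other.

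The thyrotropin releasing hormone receptor (Trhr), at rank 6671, read 7.08, 7.72, 6.35, 6.76 and 6.79 (mean 6.94 ± 0.51). Pool 2 was the highest for Trhr, as for Tshb and Cga. The gonadotropin releasing hormone receptor (Gnrhr), at rank 7064, read 6.41, 7.22, 6.18, 7.02 and 7.09 (mean 6.78 ± 0.46). The dopamine receptor Drd2, which holds back lactotrophs and melanotrophs, read 6.95, 7.11, 7.01, 6.59 and 5.68, with pool 5 the lowest. Trhr and Gnrhr each rest on 1 probe set, since the others of the gene averaged 2.89 for Trhr and 3.76 and 2.75 for Gnrhr.

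Of the corticotroph receptors, the corticotropin releasing hormone receptor Crhr1 stood just above the reference at 4.96 ± 0.28. Its other probe set averaged 3.02. The vasopressin receptor Avpr1b stood well below the reference at 2.99 ± 0.15. The PACAP receptor Adcyap1r1 (6.25 ± 0.69), the somatostatin receptor Sstr3 (5.97 ± 0.51) and the oxytocin receptor Oxtr (5.17 ± 0.32) were above. Natriuretic peptide receptors were higher, with Npr2 at 8.19 ± 0.42 and Npr3 at 6.82 ± 1.05. Npr3 (7.18, 5.24, 7.81, 7.58 and 6.30) and Sstr4 (6.66, 4.19, 5.93, 6.18 and 4.65) were the members with an SD of 1 or more. Both were lowest in pool 2, and without pool 2 no member reached that spread; without pool 1 there was 1.

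**Figure D2:**
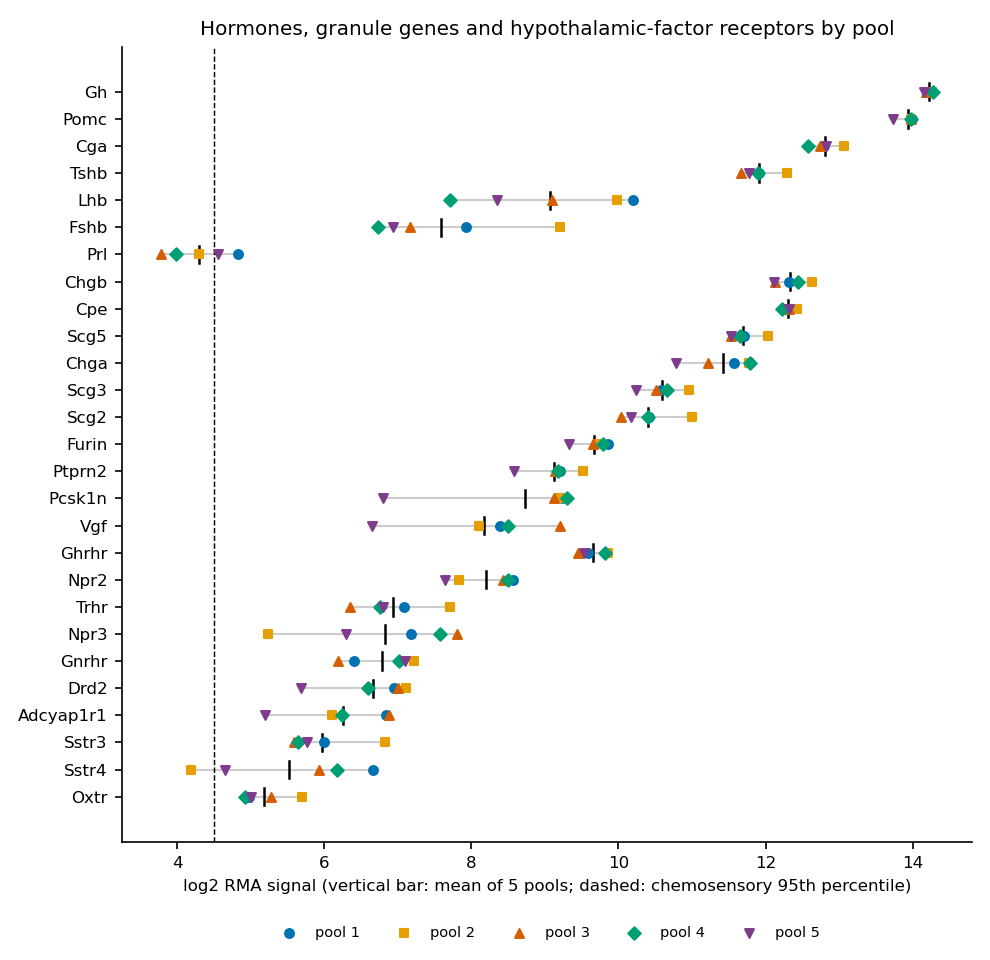
Log2 signal in each of the 5 wild-type pools (1 symbol per pool, vertical bar for the mean, dashed line at 4.50 for the chemosensory 95th percentile) of the hormone genes, granule genes and receptors. Symbols overlap for Gh and Pomc, spread over 2.49 units for Lhb, and set pool 5 apart for Pcsk1n.

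Receptors for growth factors and peripheral hormones were more often bright, with 40 of 46 above the reference (87.0%). Notch2, a receptor of cell-contact signalling, had the highest mean (11.83 ± 0.13, SD, n = 5). The hedgehog receptor Ptch1 was next and nearly constant, with 11.76, 11.73, 11.78, 11.75 and 11.73, though its other probe sets averaged 3.54 and 2.62. The activin receptor Acvr2a (11.12 ± 0.21), the BMP receptor Bmpr2 (10.46 ± 0.21), the platelet-derived growth factor receptor Pdgfra (10.17 ± 0.32) and the cytokine receptors Il6st (9.90 ± 0.26) and Lifr (9.82 ± 0.46) followed. The TGF-beta receptor Tgfbr1 (9.70 ± 0.17), the growth hormone receptor Ghr (9.68 ± 0.15) and the BMP receptor Bmpr1a (9.25 ± 0.35) completed the 10 highest. With the mean of all probe sets of a gene, each of these 10 was lower. Notch2 then read 7.77, Acvr2a 8.02 and Il6st 5.51. Ret and Gfra3, receptor subunits for glial-derived neurotrophic ligands, had an SD of 1 or more, and no member did without pool 3.

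Of 44 nuclear receptor genes, 26 lay above the reference (59.1%) and none had an SD of 1 or more, where 1.75% of all genes did. The orphan receptor Nr2f6 read 11.27 ± 0.15 but 4.75 once probe sets that can match several transcripts were left out, so its rank rests on such a set. Among the others were the orphan receptor Nr2c2 (9.69 ± 0.08), the clock repressor Nr1d2 (9.58 ± 0.41) and the glucocorticoid receptor Nr3c1 (8.84 ± 0.37), through which corticosteroids act back on corticotrophs. The thyroid hormone receptor Thra read 9.16, 8.57, 9.65, 8.82 and 7.68, with pool 5 the lowest. Nr4a3 (8.50 ± 0.29), Nr2f2 (8.49 ± 0.38), the retinoid partner receptor Rxra (8.41 ± 0.40), Nr2f1 (8.13 ± 0.57) and the estrogen receptor Esr1 (8.10 ± 0.34) were close in signal. The other estrogen receptor gene, Esr2, was below the reference.

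Most transcription factors that build the pituitary gave a signal above the reference. Of 41 measured, these were 35 (85.4%, against 63.7% of all genes). None had an SD of 1 or more, where 1.75% of all genes did, but their median SD of 0.345 was above the 0.256 over all genes. Pou1f1, which encodes Pit1, was not analysed here. Egr1, an immediate early factor that gonadotrophs need for Lhb, had the highest mean, with 11.65, 11.55, 11.56, 11.64 and 11.60 in pools 1 to 5. The zinc finger factor Zbtb20 (10.90 ± 0.26), which lactotrophs need, and Myt1 (10.87 ± 0.34) followed. With the mean of all probe sets of a gene, Zbtb20 read 7.02 and Myt1 6.87. Neurod4, a basic helix-loop-helix factor, read 10.64, 11.04, 10.27, 10.69 and 10.97 at rank 553. Its other probe sets averaged 8.53 and 2.89. The LIM factor Isl1, which sensory neurons also make, read 10.04, 10.58, 10.97, 10.32 and 10.87 at rank 647. Pools 2 and 5 were the highest for Neurod4, and pool 3, in which ganglion genes were high, was the lowest for Neurod4 and the highest for Isl1.

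Factors tied to single cell types were spread over the next ranks. Neurod1, an early corticotroph factor, stood at 9.20 ± 0.37 and Tbx19, which corticotrophs and melanotrophs need to make Pomc, at 7.98 ± 0.27 (SD, n = 5). Pax7, the factor that sets the melanotroph apart from the corticotroph, read 8.27, 8.47, 8.25, 7.95 and 8.29. Gata2, a thyrotroph and gonadotroph factor, stood at 8.93 ± 0.21. The gonadotroph factors Foxl2 (5.94 ± 0.36) and Nr5a1 (5.37 ± 0.42) were the dimmest of these. Nr5a1 read 5.47, 5.44, 5.70, 5.59 and 4.63, so pool 5, whose own reference level is 5.40, was the lowest. Sox2, a factor of pituitary progenitors, read 8.95, 9.35, 9.18, 8.87 and 9.21, and the hedgehog effector Gli3 stood at 9.11 ± 0.14. Foxo1 read 8.88 ± 0.47, and Lhx3, a LIM factor needed for the pouch from which the gland forms, 8.30 ± 0.32. The 6 factors below the reference were Gli1, Nr0b1, Sox3, Gata3, Hes1 and Hesx1, and Hesx1, a repressor of the early pouch, averaged 2.90.

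**Figure D3:**
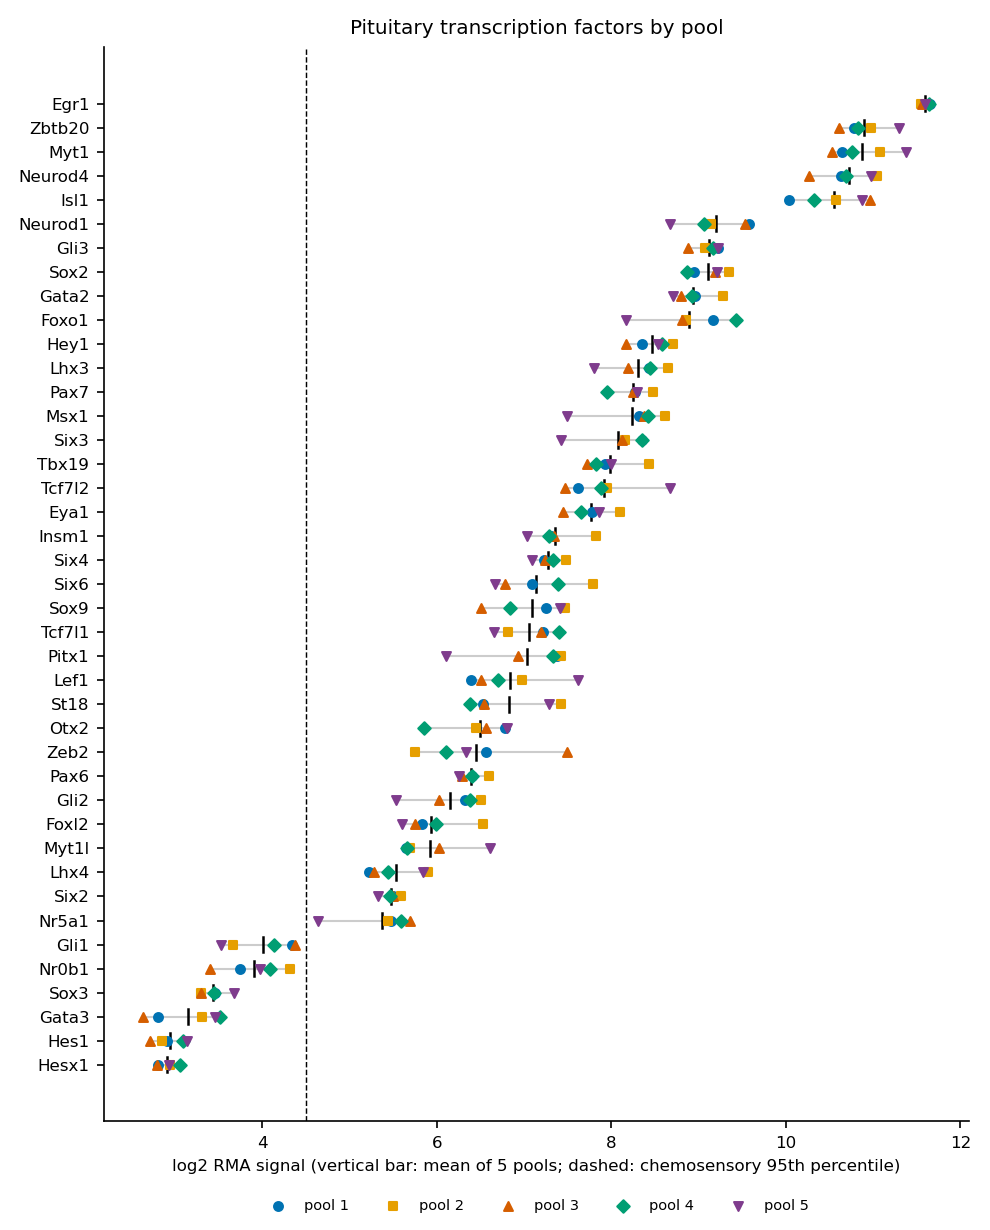
Log2 signal of 41 pituitary transcription factors in each of the 5 wild-type pools (1 symbol per pool, vertical bar for the mean, dashed line at 4.50 for the chemosensory 95th percentile), ordered by mean. Egr1 is the highest at 11.60 with nearly coincident pools, and 6 factors lie left of the line.

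Over 409 genes of larger transcription factor families, 236 were above the reference (57.7%) and 10 had an SD of 1 or more (2.44%, against 1.75% of all genes). The count of 10 became 15 without pool 2, 19 without pool 4 and 17 without pool 5. The highest means were those of Ets2 (12.50 ± 0.11), Tcf4 (11.65 ± 0.09), Egr1 and the AP-1 subunit Jund (11.54 ± 0.17). Sox11 (11.32 ± 0.38), Creb3 (11.31 ± 0.19), Nr2f6, Foxp1 (11.08 ± 0.24), Foxo3 (10.97 ± 0.08) and Zbtb20 came next. With the mean of all probe sets of a gene, Ets2 read 7.62, Tcf4 8.22, Jund 7.84, Sox11 8.75, Foxp1 6.82, Foxo3 7.86 and Zbtb20 7.02. Creb3 read 7.20 without probe sets that can match several transcripts. Egr1 has 1 probe set. Families differed widely in how many members were above the reference. Only 2 of 33 Hox genes (Hoxc8 and Hoxd9), which pattern the trunk, and 0 of 12 Nkx genes were above. All 5 measured genes of the sine oculis family (Six2, Six3, Six4, Six5 and Six6), which act in the head placodes, all 4 Id genes, all 4 nuclear factor I genes and all 6 measured Meis and Pbx genes were above, as were 13 of 16 Klf genes. These counts were not tested against each other.

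Progenitor markers were above the reference in 23 of 26 cases (88.5%). The tetraspanin Cd81, which other cells also make, led with 12.02 ± 0.09 (SD, n = 5). The epithelial genes Krt18 (9.72 ± 0.42) and Epcam (9.63 ± 0.47), the secreted protein Mia (9.46 ± 0.43) and the stem cell surface protein Prom1 (9.37 ± 0.20) followed. Lgr4, a receptor that strengthens Wnt signalling, stood at 8.86 ± 0.27, the RNA-binding protein Rbpms at 8.74 ± 0.21 and the retinoic acid enzyme Aldh1a2 at 8.55 ± 0.39. The neurturin receptor Gfra2 read 8.72 ± 0.15 but 3.17 without probe sets that can match several transcripts. S100b and S100a6 were the members with an SD of 1 or more, and 1 of them remained without pool 3.

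Genes of S phase and mitosis were present throughout, with 28 of 29 above the reference (96.6%) and none with an SD of 1 or more. The replication genes Mcm4 (10.35 ± 0.26), Pcna (10.06 ± 0.19), Rrm2 (9.97 ± 0.19) and Mcm7 (8.84 ± 0.28) were in the upper part. Mki67, a marker of dividing cells, read 9.34, 9.58, 9.09, 9.46 and 9.13 at rank 1925, within 0.49 units between pools. The mitotic genes Prc1 (9.38 ± 0.24) and Ccna2 (8.89 ± 0.16) lay between Rrm2 and Mcm7, and Tpx2 (8.59 ± 0.25) and Nusap1 (8.49 ± 0.25) lay below Mcm7. Of 11 genes that hold the cell cycle back, 8 were above the reference (72.7%, against 63.7% of all genes). Cdkn1b, which encodes the inhibitor p27, led with 9.98 ± 0.19, ahead of Cdkn1c (8.51 ± 0.56), Cdkn1a (6.78 ± 0.88) and Rbl1 (6.59 ± 0.44).

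Imprinted genes, read from 1 parental copy and many of them regulators of growth, ranked very high. All 9 measured were above the reference, and 4 lay in the top 1% of signals. These were Peg3 (12.67 ± 0.16), Ndn (12.56 ± 0.25), the non-coding Meg3 (12.25 ± 0.24) and Plagl1 (12.17 ± 0.10). Ndn and Plagl1 rest on probe sets that can match several transcripts and read 10.58 and 9.10 without them, below the 11.68 that bounds the top 1%. With the mean of all probe sets of a gene, Peg3 read 6.47 and Meg3 9.44, also below 11.68. Nnat, a further imprinted gene outside that list and named after its value was seen, read 12.48 ± 0.28 at rank 55. The median rank of the 9 was 244 of 18193. Among immediate early and heat shock genes, which can rise while tissue is being handled, 9 of 14 were above the reference. That share of 64.3% is close to the 63.7% of all genes. Hsph1 (11.89 ± 0.15), Egr1, Dusp1 (10.89 ± 0.18) and Jun (10.15 ± 0.05) led, while Fosb, Junb, Ier2, Atf3 and Hspa1a were below, and no member had an SD of 1 or more.

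The gland sits on bone, beside sensory ganglia and under the brain, so markers of neighbouring tissues were read pool by pool. Skeletal muscle genes were at the level of dim signal, with 0 of 14 above the reference and means of 2.74 to 4.05. The highest were Myl1, Tnnt3 (3.89), Mylpf (3.70) and Tnnc2 (3.55). Of 10 genes of oral and skin epithelium only Krt10 (6.24 ± 0.21) was above, and Krt13 (4.25), Krt5 (4.05) and Trp63 (3.97) were not. Liver proteins were low, with albumin (Alb) at 3.01 and alpha-fetoprotein (Afp) at 3.23. Apoa1 averaged 4.87, and transthyretin (Ttr), which the choroid plexus also makes, read 9.53, 8.29, 8.35, 8.69 and 8.03.

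Sensory ganglion genes set pool 3 apart from the other 4. Peripherin (Prph), an intermediate filament of peripheral neurons, read 2.98, 3.05, 10.59, 3.74 and 3.34 in pools 1 to 5. The pain-sensing channel P2rx3 read 3.35, 3.25, 9.74, 3.80 and 2.22. Both were high in pool 3 alone and below the reference in the other 4 pools. The other probe sets of Prph averaged 3.11 to 3.30, with SDs of 0.30 to 1.07. All 15 genes of the list were highest in pool 3, and their mean was 9.25 there against 4.83 to 5.35 in the others. This list was chosen with earlier results of these data known. Of the 15, 13 had an SD of 1 or more, where 1.75% of all genes did, and 1 did without pool 3. They include the neurofilaments Nefl (7.27, 7.68, 11.94, 7.57 and 6.53), Nefm and Nefh, the sensory neuron factor Pou4f1 (6.08, 6.77, 10.29, 6.56 and 7.56) and the actin regulator Avil. Nefl, Pou4f1, Stmn2 (7.54 ± 1.48) and Uchl1 (9.11 ± 0.69) were above the reference in every pool.

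Schwann cell genes, of the glia that wrap peripheral nerve, were high in pool 3 and next highest in pool 1. The list mean was 8.15, 6.35, 9.91, 6.82 and 6.22 in pools 1 to 5. The myelin gene Mbp read 10.24, 6.61, 12.22, 8.35 and 5.69, the myelin gene Pmp22 10.60, 8.92, 12.25, 10.28 and 9.72, and the glial factor Sox10 6.91, 4.73, 9.96, 5.89 and 3.92. All of these put pool 3 at the top and pool 1 second. The receptor Erbb3 was high in pool 3 alone (8.89, against 6.97 to 7.02 in the others). Of 6 genes, 5 had an SD of 1 or more, where 1.75% of all genes did, and 3 did without pool 3. The glial and progenitor gene Fabp7 differed in pattern, with 9.43 in pool 1 and 9.02 in pool 3 against 5.45 to 5.91 in the rest.

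Bone and connective tissue genes split the pools another way. Bone sialoprotein (Ibsp), made by bone-forming cells, read 9.69, 3.03, 3.13, 9.48 and 8.75, the largest SD of all genes at 3.43. It was high in pools 1, 4 and 5 and at the level of dim signal in pools 2 and 3. These values rest on 1 probe set, and the other probe set of Ibsp averaged 5.48 with an SD of 0.99. The bone mean over 14 genes was 6.92, 5.04, 5.76, 6.84 and 6.40. Of the 14, 5 had an SD of 1 or more, where 1.75% of all genes did, with 2 left without pool 2. Collagens of bone and matrix were bright in every pool, with Col1a1 at 12.72, 11.75, 12.55, 12.69 and 12.63 and Col1a2 at 12.65, 10.66, 12.28, 12.61 and 12.21. Pool 2 was the lowest for both, as for Col3a1 (mean 11.98 ± 0.46), while Dcn was steadier at 9.62 ± 0.15. The cartilage gene Acan read 9.55, 4.70, 9.24, 9.78 and 8.14, whereas Hapln1 stood at 7.17 ± 0.12. Col9a1 (7.15 ± 0.46) ran from 6.65 in pool 2 to 7.77 in pool 1.

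Vessel genes were above the reference in 13 of 14 cases. The endothelial genes Tek (9.49 ± 0.21), Emcn (7.72 ± 0.18) and Cldn5 (7.69 ± 0.82) had an SD below 1. The smooth muscle genes Acta2 (9.35, 5.40, 10.02, 9.82 and 9.58), Myh11 (7.53, 4.40, 8.20, 8.33 and 7.54) and Tagln exceeded it, and none did without pool 2, where these genes were low. The Acta2 signal comes from a probe set that can match several transcripts, and Acta2 read 3.05 without such sets. Macrophage and other immune genes were above in 12 of 14 cases, led by Csf1r (10.71, 9.17, 10.47, 10.73 and 9.05) and C1qb (10.12, 9.23, 9.73, 9.82 and 8.65), with Mrc1 (8.18 ± 0.53) and Tyrobp (7.21 ± 0.60). Pools 2 and 5 were the lowest for Csf1r and C1qb. The C1qb level also rests on a probe set that can match several transcripts and was 5.47 without such sets. Of 16 listed red cell genes, 10 had a probe set that names 1 gene, and the others were not analysed. Those measured were mostly dim, with 4 of 10 above the reference. These were Hbb-b2 (10.24 ± 0.28), Hba-a2 (6.79 ± 0.64), Alas2 (5.73 ± 0.35) and Slc4a1 (5.68 ± 0.78).

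Of 9 genes of the neural lobe and hypothalamus, 3 were above the reference, namely Col25a1 (9.81 ± 0.41), the glutamate transporter Slc1a3 (9.11 ± 0.46) and the neural lobe factor Rax (4.57 ± 0.43). The count was 2 without pool 1 and 5 without pool 5. Oxytocin (Oxt) averaged 4.49, just under the reference. The brown fat gene Ucp1 read 6.50 in pool 1 and 2.74 to 3.14 in the other pools, and the fat list mean was 6.12 in pool 1 against 4.76 to 4.98. Of that list, Fabp4 (8.72 ± 0.40) and Cidea (5.00 ± 0.48) were above the reference, Fabp4 through a probe set that can match several transcripts (3.13 otherwise), and Adipoq (2.97) was not. How much each neighbouring tissue adds to the signal of a pituitary gene was not tested.

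**Figure D4:**
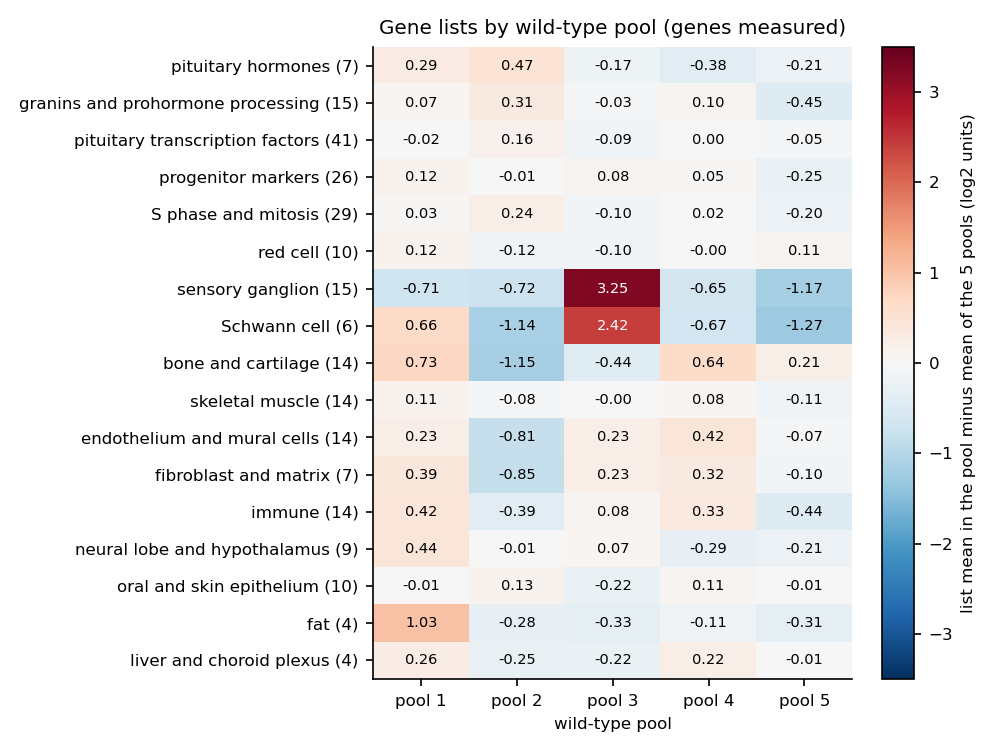
Mean log2 signal of each gene list in a pool minus its mean over the 5 wild-type pools (colour and printed value, in log2 units), with the number of genes measured in brackets. The ganglion list is 3.25 units above its mean in pool 3, and bone, vessel and fibroblast lists are lowest in pool 2, by -1.15, -0.81 and -0.85 units.

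Across all 18193 genes, 319 (1.75%) had an SD of 1 or more between the 5 pools, and the median SD was 0.26. Without pool 3 the count was 173, of which 132 were among the 319, and it was 322 to 424 without any other pool. Of the 319, 254 had a mean above the reference, and in all 319 the highest pool was above it. The spread depended on the signal. The median SD was 0.17 in the dimmest 20% of genes, 0.36 in the middle 20% and 0.22 in the brightest 20%, where 27 of 3639 genes (0.742%) had an SD of 1 or more.

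**Figure D5:**
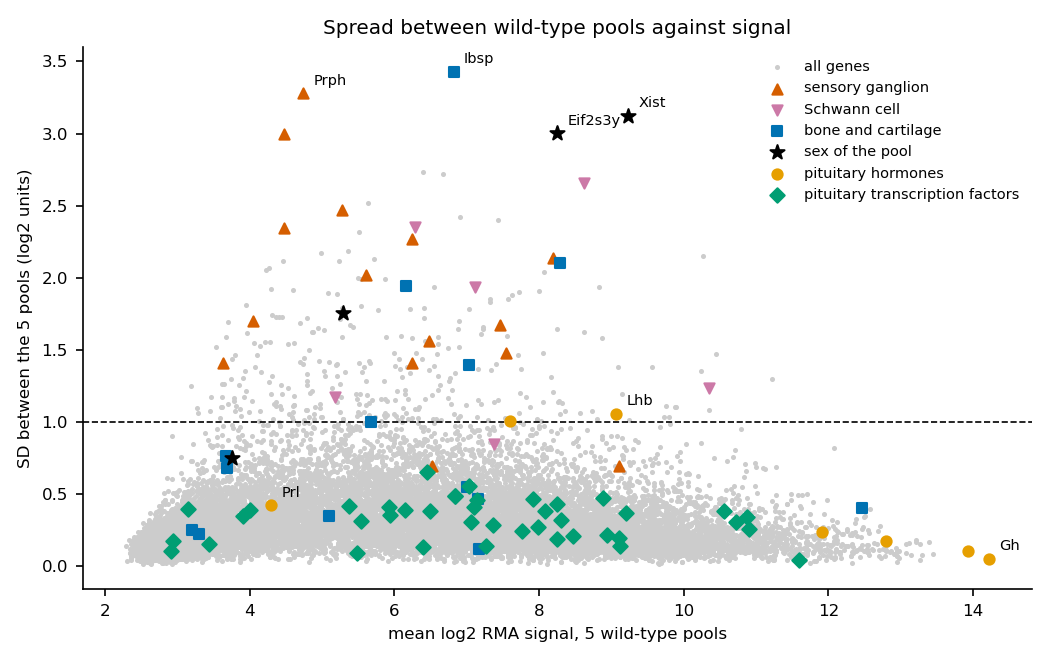
SD between the 5 wild-type pools against mean log2 signal for 18193 genes (grey points), with ganglion, Schwann cell, bone, sex, hormone and transcription factor genes marked; the dashed line is an SD of 1. Ibsp (3.43), Prph (3.28) and Xist (3.12) are the highest labelled points, and all 41 pituitary transcription factors lie below the line.

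Each of the 319 genes was sorted by which pools lay above the widest gap in its ordered values. In 169 (53.0%) pool 3 stood alone. This set held, beside the ganglion and Schwann cell genes, the sensory channel regulator Pirt (9.48 in pool 3), the sensory neuron factor Prrxl1 (8.98), the synaptic protein Cplx1 (11.07), the neurite growth protein Nrn1 (10.68), the synuclein Sncg (8.65) and the Schwann cell signal Dhh (8.44). The vesicle protein Rab6b (11.42), the myelin protein Mal (9.40), the pigment enzyme Tyrp1 (7.89) and the genes Trarg1 (9.49), Phf24 (8.21) and Fam131b (7.86) were in it too. Nefh read 9.03 and Avil 9.66 in pool 3, against 3.69 to 5.40 and 3.83 to 4.67 in the others.

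Pool 2 was low in 44 further genes. These include the clotting factor Vwf (9.09, 3.74, 9.39, 8.67 and 6.28), the matrix protein Fmod (12.09, 6.90, 11.37, 11.62 and 9.38), elastin (Eln; 11.37, 7.91, 11.25, 11.31 and 10.38) and the mast cell protease Cma1 (9.54, 5.03, 9.04, 9.27 and 7.13). In 35 genes pools 2 and 5 were both low, among them the mast cell protease Cpa3 (9.01, 4.71, 8.69, 8.76 and 6.67). Each of these named genes of vessel, matrix and mast cells had its lowest value in pool 2. In 27 genes pools 1 and 3 were high, and several of these are glial or brain genes. The glial genes Gfap (6.34, 3.50, 6.13, 3.02 and 2.82) and Aqp4 (8.01, 5.70, 8.19, 5.44 and 4.80) and the cortical genes Reln, Neurod2 and Eomes were among them. Gfap also belongs to the list of neural lobe and hypothalamus genes.

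The pattern of Ibsp, high in pools 1, 4 and 5, was shared by 11 genes with Ibsp among them. They include the matrix proteases Mmp9 (8.51, 2.94, 4.61, 8.87 and 8.46) and Mmp13 (7.46, 2.73, 3.33, 7.10 and 6.16), the osteoclast phosphatase Acp5 (3.23 in pool 2 and 4.28 in pool 3, against 6.98 to 7.85 in the others) and the osteocyte gene Dmp1 (7.47, 4.11, 4.04, 8.12 and 7.07). Bone-forming or bone-resorbing cells make such products, but which cells gave the signal was not tested. The pattern of Ibsp also held Lcn2, a neutrophil granule protein gene, at 5.26 ± 1.17, and the stefin genes Stfa3 (7.23 ± 1.65) and Stfa2l1 (8.06 ± 1.48), made in neutrophils. The bone genes Ctsk (7.91, 5.00, 6.65, 8.48 and 7.70) and Alpl (7.99, 4.65, 7.24, 8.11 and 7.16) did not share it. In both, pool 2 alone lay below the widest gap. In 10 genes pool 1 stood alone. The prostaglandin synthase and carrier Ptgds, made in the membranes around the brain, read 13.50, 10.17, 10.80, 10.82 and 10.83, and the transporters Slc6a20a (8.45 in pool 1), Slc13a4 (7.26) and Slc22a6 (6.73) had the same pattern. Pool 5 was low in 10 genes, including Pcsk1n and the synaptic vesicle protein Syn1 (7.14, 7.04, 8.47, 6.95 and 5.32). The neutrophil genes S100a8 (8.73, 7.48, 6.52, 10.20 and 10.16), S100a9 and Mpo were high in pools 4 and 5.

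Genes of the sex chromosomes also differed between pools. Xist, the RNA of the inactive X chromosome, read 11.14, 10.26, 10.19, 3.69 and 10.89 in pools 1 to 5. The Y-linked genes Eif2s3y (3.05, 9.28, 8.45, 10.24 and 10.24) and Kdm5d (2.27, 6.17, 5.92, 6.70 and 5.39) were low in pool 1 alone, and Uty was dim in all pools (mean 3.75). Xist was thus high without Y-linked signal in pool 1, Y-linked signal stood without Xist in pool 4, and pools 2, 3 and 5 had both. Of these 4 genes, 3 had an SD of 1 or more, where 1.75% of all genes did, with 1 left without pool 1 and 2 without pool 4.

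At the other end, some bright genes hardly differed between pools. Among the 5% of genes with the highest means, the smallest SDs were those of the X-linked ribosomal protein Rps4x (0.021), Ptch1 (0.023), Rps29 (0.027) and the kinase Dyrk1a (0.035). The proteasome subunit Psmd14, the chromatin protein Kansl2, the mitochondrial enzyme Nnt, Prr13, the respiratory chain subunit Uqcrb and the deubiquitinase Usp7 were next, all at an SD of 0.04. Rps4x read 12.34, 12.36, 12.30, 12.32 and 12.33, so its pools lay within 0.06 units of each other. These genes were chosen for their small SDs, so their closeness is a description.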

How the data were processed

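Pituitary RNA of newborn mice was hybridised to Affymetrix arrays, 1 per RNA pool, after extraction with the Ambion RNAqueous Micro kit and biotin labelling, per the labels. The authors deposited log2 signals made with RMA, per the submitters' processing notes; RMA corrects background, normalises arrays by quantiles and summarises probes. The sources used here name no version or setting of it. The 5 pools were grouped by title. RMA forces all arrays to nearly the same distribution, so values compare a gene between pools better than genes with each other.

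Among 45101 probe sets are 64 controls, which were left out; of the rest, 34945 name 1 gene, 932 several and 9160 none in the annotation given, and 34741 were matched to gene records by ID. For each of 18193 genes the values are those of 1 probe set, chosen by the highest mean on the 15 arrays where several name the gene (9010 genes). Genes without such a probe set were not analysed here. Means, SDs, ranks and gaps were computed in Python 3.11.15 with pandas 2.3.3 and numpy 2.4.6, and figures were drawn with matplotlib 3.10.9. No group was compared, so no p-value is given. A gene counts as above the reference if its mean exceeds the 95th percentile of the chemosensory receptor genes, and as variable with an SD of 1 log2 unit or more. The procedure was tested on simulated data.

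The pools, gene lists and thresholds were chosen with earlier results of these data known. Genes were named by a rule: the 20 highest means, the hormone genes, the 10 highest members of the main lists and 4 of the others, all members of the lists of single pituitary cell types and of sex genes, the 30 largest SDs, and the 10 smallest SDs among the 5% with the highest means. Genes outside it were chosen after their values were seen, among them Nnat, Lhx3, Ptgds, Cpa3, Cma1, Eln, Myh11, Dmp1, Ctsk, Alpl, Syn1, S100a8 and the glial and brain genes. Alternatives were another centring, a second quantile normalisation, other choices of probe set, a filter on dim probe sets, other thresholds and leaving out each pool.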

Additional observations from a re-analysis of the deposited data

Results flagged for a closer look

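In 36 of 237 genes searched (15.2%) and 2 of 12 gene lists, 1 pool lay so far from the others that its gap to the nearest one exceeded Dixon's 95% limit for 5 samples. Chance flags about 1 in 20 groups, and over all 18193 genes 1962 (10.8%) had such a pool. The genes searched include the 30 with the largest SD and others chosen for their spread, so their share is not comparable with either figure.

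Pool 3 was high in 16 of the 38 cases. The mean of the sensory ganglion list was 9.25 there, and the nearest other pool read 5.35. The genes, each with the nearest other pool in brackets, were Prph at 10.59 (3.74), P2rx3 at 9.74 (3.80), Sncg at 8.65 (3.74), Avil at 9.66 (4.67), Nefm at 10.27 (5.52), Nefl at 11.94 (7.68), Pirt at 9.48 (5.17) and Prrxl1 at 8.98 (4.62). Trarg1 read 9.49 (5.27), Phf24 8.21 (4.02), Fam131b 7.86 (3.96), Tyrp1 7.89 (3.52), Tac1 10.60 (6.85), Erbb3 8.89 (7.02) and the chaperone Hspa8 13.13 (12.93).

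Pool 5 was low for Pcsk1n at 6.80 (9.12), Pomc at 13.74 (13.97), Rpl13a at 12.89 (13.24), Rpl38 at 12.81 (13.12), Creb3 at 10.98 (11.35), Nmb at 5.78 (6.47), Nr5a1 at 4.63 (5.44) and Ninj1, a cell adhesion protein, at 5.98 (7.85). It was high for Lgr4 at 9.34 (8.81), Usp7 at 11.50 (11.42) and the red cell membrane gene Slc4a1 at 7.02 (5.50).

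Pool 2 was low for the smooth muscle genes Acta2 at 5.40 (9.35) and Myh11 at 4.40 (7.53) and for the matrix genes Eln at 7.91 (10.38), Col1a2 at 10.66 (12.21) and Col1a1 at 11.75 (12.55). Pool 1 was high for Ptgds at 13.50 (10.83), Ucp1 at 6.50 (3.14) and the mean of the fat list at 6.12 (4.98), and low for Eif2s3y at 3.05 (8.45). Pool 4 was low for Xist at 3.69 (10.19) and high for Foxo3 at 11.11 (10.94).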

How the results depend on the processing

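The 3 counts over all genes were recomputed under other choices. The number of genes above the chemosensory reference ran from 9176, with the 99th percentile as the reference, to 11836, without pool 5, and stayed within 1.5 times 11594 under every choice run. The number with an SD of 1 or more was 319 and became 197 with the mean of all probe sets of a gene, 768 with an SD of 0.75 as the threshold, 203 with pools 3 and 5 both left out (a choice made after seeing the data), and 173 to 424 when each pool was left out in turn. Of the 182 genes in the top 1% of signals, 66 were in it with the mean of all probe sets, 63 without the probe sets whose names end in _a_at, _s_at or _x_at, and 174 to 180 when each pool was left out. Gh ranked 1 and Pomc 2 under each gene-level choice that measured them, and neither has a probe set without those suffixes. Of 216 genes named by the rule, the mean signal moved by 1 SD or more for 0 with median centring, 3 with a second quantile normalisation, 114 with the mean of all probe sets and 31 of the 184 that kept a probe set without the shared suffixes.

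No paired analysis was possible because no groups are compared and the values come from no test. Arrays carry no counts, so dim genes such as Prl are bounded only by the signal of the chemosensory receptor genes.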

Other observations

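Probe sets that name several genes or none in the annotation given were outside the ranking. Of these 10092, 3124 (31.0%) had a mean above 4.50 in the wild-type pools, the highest mean was 13.78, and 76 (0.753%) had an SD of 1 or more.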
